A study of Mus musculus with 6 samples.

Results

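The 10 genes described here mark smooth muscle cells and pericytes, the mural cells that wrap blood vessels, and were followed in cultured muscle satellite cells (SCs) from WT and *Ltf*-KO mice. The members were chosen by gene name among the 55416 genes of the deposited table. For a repeated name the row with the highest mean TPM would have been taken, but 0 of the 10 names repeated. The 6 RNA-seq libraries, 3 of each genotype, were made from cells harvested after 4 days of growth without treatment. SCs were sorted from collagenase-digested mouse hind leg muscle and grown on Matrigel with serum, chicken embryo extract and basic fibroblast growth factor. The methods describe the collected cells as Sca1-, CD11b-, CD34+ and α7-integrin+, but name staining antibodies against CD31, CD45, Sca1 and α7-integrin. *Ltf*-KO mice lack lactoferrin in all tissues, since Cas9 cuts in introns 2 and 8 removed part of *Ltf* in the zygote, so the genotype is not restricted to SCs. The methods give young adult mice for all experiments unless specified otherwise. Whether the 3 libraries of a genotype came from separate animals is not stated, and the spread between libraries may therefore be partly technical.

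Values are TPM, the share of transcripts of a gene after division by its length, scaled to the same total in every library. Levels of different genes can be set side by side in this unit, but how many reads support a value is unknown. *Ltf* itself was at 0.12 TPM or less in all 6 libraries of both genotypes, so its RNA does not tell the genotypes apart. The culture expressed the defining genes of the myogenic lineage, with all 12 genes of a myoblast list averaging 1 TPM or more, among them *Myod1* at 779 TPM, *Chrna1* at 516 TPM and *Des* at 473 TPM. The mural genes ranged from *Acta2* at 492 TPM to *Kcnj8* at 0.0667 TPM.

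Smooth muscle cells contract through a cytoskeleton of α-smooth muscle actin (*Acta2*), smooth muscle myosin heavy chain (*Myh11*) and the actin-binding proteins transgelin (*Tagln*) and calponin 1 (*Cnn1*). These genes are switched on by serum response factor (SRF) with its coactivators of the myocardin family, which bind a short AT-rich element, the CArG box. Pericytes sit on capillaries and are recognised by the PDGF receptor β (*Pdgfrb*), which receives endothelial PDGF-B, the proteoglycan NG2 (*Cspg4*), the adhesion protein CD146 (*Mcam*), the G protein regulator *Rgs5*, and an ATP-sensitive potassium channel built from a pore (*Kcnj8*) and a sulfonylurea receptor (*Abcc9*). Several of these proteins are also made outside vessels, and α-smooth muscle actin is known to be made for a time in developing skeletal muscle.

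Because SRF acts close to the start site of its targets, the promoters of 3 members are shown, that of *Acta2* as the most abundant member, that of *Cnn1* as a contractile gene with little RNA here, and that of *Abcc9*, whose levels were highest in the same libraries as those of *Acta2*. Each run covers 250 bases before and 50 bases after the RefSeq start on GRCm38.p6, read 5′ to 3′ on the strand of the gene. It lies at chr19:34255324-34255623 (minus strand) for *Acta2*, at chr9:22099003-22099302 (plus strand) for *Cnn1* and at chr6:142702225-142702524 (minus strand) for *Abcc9*. Capitals mark CArG boxes in which at most 1 of the 6 central bases is not A or T.
Acta2: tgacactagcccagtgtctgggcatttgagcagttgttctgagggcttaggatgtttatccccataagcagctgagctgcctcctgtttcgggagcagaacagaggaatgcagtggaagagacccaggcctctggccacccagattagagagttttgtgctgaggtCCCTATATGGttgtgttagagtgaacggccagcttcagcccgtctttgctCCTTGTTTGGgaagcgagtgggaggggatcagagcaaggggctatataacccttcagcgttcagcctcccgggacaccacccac
Cnn1: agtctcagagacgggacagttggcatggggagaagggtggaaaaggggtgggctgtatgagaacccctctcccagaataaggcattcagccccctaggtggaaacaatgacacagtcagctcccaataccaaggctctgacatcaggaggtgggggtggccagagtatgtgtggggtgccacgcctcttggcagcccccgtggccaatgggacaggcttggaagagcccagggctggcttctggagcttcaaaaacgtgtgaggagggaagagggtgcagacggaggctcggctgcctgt
Abcc9: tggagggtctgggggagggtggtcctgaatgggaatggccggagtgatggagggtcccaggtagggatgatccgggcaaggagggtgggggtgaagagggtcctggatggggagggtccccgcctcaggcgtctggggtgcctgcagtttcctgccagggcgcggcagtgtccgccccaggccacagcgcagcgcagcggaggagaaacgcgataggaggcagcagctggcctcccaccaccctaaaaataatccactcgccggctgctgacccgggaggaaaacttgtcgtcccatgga
The *Acta2* promoter held 2 such elements, from base -84 to -75 and from base -34 to -25 counted from the start. Neither was a CArG box without mismatch. The promoters of *Cnn1* and *Abcc9* held 0, as did those of *Cspg4*, *Mcam*, *Rgs5* and *Kcnj8*, which were searched in the same way on both strands. An element with at most 1 mismatch occurred in 9.98% of all 32851 promoters of this length, and a CArG box without mismatch in 1.63%. The search that allows 1 mismatch was chosen after the search without mismatch had found none in the *Acta2* promoter. The matches describe the letters in this window, and elements further away or in introns were not searched. Promoters of *Tagln*, *Myh11* and *Pdgfrb* were not analysed here.

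The order of levels was *Acta2*, *Tagln*, *Cspg4*, *Mcam*, *Pdgfrb*, *Abcc9*, *Cnn1*, *Myh11*, *Rgs5* and *Kcnj8*. From *Acta2* down to *Abcc9* each gene was above the next in all 6 libraries, with no overlap of their ranges. *Acta2* averaged 7.43 times the TPM of *Tagln*, and *Tagln* averaged 1.89 times that of *Cspg4*. From *Abcc9* downwards the ranges of neighbours over the 6 libraries overlapped. Compared within each library, *Myh11* was still above *Rgs5* in all 6, while the other neighbours in this part did not keep their order in every library. Genes further apart had separate ranges in part, since *Abcc9* lay above *Myh11*, *Rgs5* and *Kcnj8* without overlap, and *Cnn1* and *Myh11* lay above *Kcnj8*. In all, 6 members had a mean of at least 1 TPM and 4 did not.

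**Figure D1:**
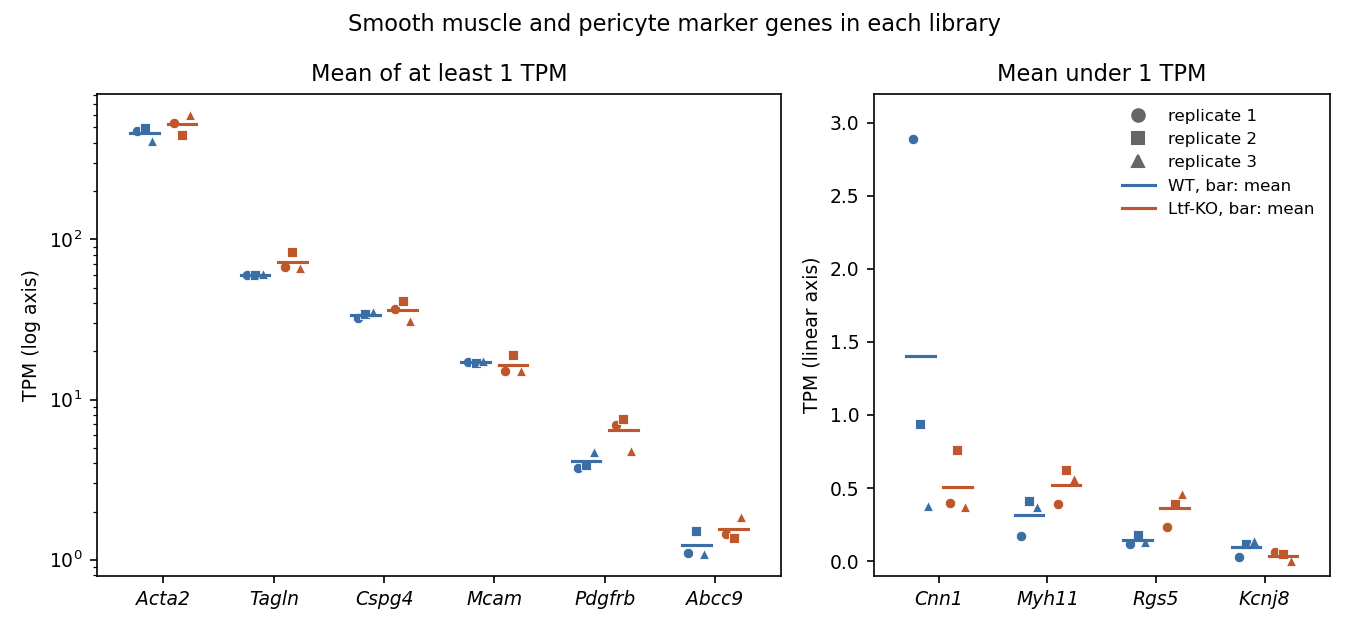
Level of each member in TPM in the 3 WT (blue) and 3 *Ltf*-KO (orange) libraries, with the mean of each genotype as a bar; the left panel has a log axis and the right panel a linear axis. *Acta2* stood at 409 to 593 TPM, *Cnn1* reached 2.89 TPM in WT replicate 1 only, and *Tagln*, *Pdgfrb* and *Rgs5* were the members whose genotypes did not overlap.

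*Acta2* (ENSMUSG00000035783), on chromosome 19 from 34241090 to 34255590 in GENCODE M21 on GRCm38, was at 473, 493 and 409 TPM in WT replicates 1, 2 and 3 and at 535, 450 and 593 TPM in the knockout replicates. The genotypes overlapped, since *Ltf*-KO replicate 2 lay below WT replicates 1 and 2. Of the 26553 genes detected in any library, 1.06% had a higher mean than *Acta2*. The WT mean was 458 ± 44.04 TPM (SD, n = 3) and the *Ltf*-KO mean 526 ± 71.9 TPM (SD, n = 3). The log2 fold change on the scale of log2(TPM + 1), used for all tests, was 0.19 with a 95% confidence interval from -0.079 to 0.47 (limma adjusted p = 0.999). It was 0.30 without *Ltf*-KO replicate 2 (limma unadjusted p = 0.0225, adjusted p = 0.98), 0.10 without *Ltf*-KO replicate 3 and, with WT replicate 3 left out, 0.11.

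Within the 6 actins, *Acta2* took 4.76% to 6.46% of the summed TPM per library. The cytoplasmic actins *Actb* and *Actg1* led with means of 3642 and 3449 TPM, followed by the sarcomeric actins *Acta1* at 977 TPM and, below *Acta2*, *Actc1* at 351 TPM. *Actg2*, the γ-actin of visceral smooth muscle, was at 1.95 TPM. *Acta2* thus stood between both sarcomeric actins, while the second smooth muscle actin was near the floor. Of the 1961 stretches of 75 bases in the longest coding transcript of *Acta2*, 0 occurred in an annotated transcript of another gene, so no stretch of that length was shared exactly with another actin.

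The libraries with most *Acta2* were WT replicate 2 and *Ltf*-KO replicates 1 and 3. The same 3 libraries were the highest for 13 of 15 muscle differentiation markers, among them *Acta1*, *Mylpf*, a fast myosin light chain, *Tnnc1*, the slow and cardiac troponin C, and *Mymk*, a fusogen of myoblasts. They were also the highest for *Myog* and *Des* and for 3 more of the 12 myoblast markers, and for 8.07% of all 12956 genes averaging 1 TPM or more. *Myog*, the regulator of terminal differentiation, was at 319, 410 and 293 TPM in WT and at 360, 266 and 508 TPM in *Ltf*-KO SCs. Of the differentiation markers, 15 of 15 had a log2 fold change above 0, as did 55.7% of all tested genes, and 0 had an unadjusted limma p under 0.05. Since 13 of the 15 shared their highest libraries, they are not 15 separate observations. The median log2 fold change of these markers was 0.15. Single libraries decided this median, which was -0.038 without *Ltf*-KO replicate 3, 0.046 without WT replicate 3, 0.28 without WT replicate 2 and, with *Ltf*-KO replicate 2 left out, 0.26. The comparison of *Acta2* with these markers was made after its values were seen, the points are 6 libraries scaled to one total, and the part of differentiation in the genotype values of *Acta2* was not tested. In bulk RNA, fewer cells of a type and less RNA per cell cannot be told apart.

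*Tagln* (ENSMUSG00000032085), an actin-binding protein of the calponin family on chromosome 9 from 45929619 to 45936058 of GRCm38, was at 59.8, 59.5 and 60.8 TPM in the WT replicates. It was at 67.4, 83.8 and 66.04 TPM in the knockout replicates, all above WT. The WT libraries lay close together, and *Ltf*-KO replicate 2 stood apart from the other *Ltf*-KO libraries. The WT mean was 60.04 ± 0.703 TPM (SD, n = 3) and the *Ltf*-KO mean 72.4 ± 9.87 TPM (SD, n = 3). The log2 fold change was 0.26 with a standard error of 0.091 (limma unadjusted p = 0.0277, adjusted p = 0.999). Without *Ltf*-KO replicate 2 it was 0.15 and without *Ltf*-KO replicate 3 it was 0.32.

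*Tagln* took 12.7% to 17.1% of the TPM of the 3 transgelins. *Tagln2*, the transgelin of many non-muscle cells, was at 407 TPM in WT and 398 TPM in *Ltf*-KO SCs, and the neuronal *Tagln3* at 0.34 and 0.33 TPM. *Tagln* is overlapped on the opposite strand by the exons of the protease gene *Pcsk7* and of the antisense transcript *Gm48529*, and 40.9% of its 75-base stretches are found there in reverse. Since no source used here states whether strand was kept, reads of these genes may not be separated. *Pcsk7* was at 10.6, 12.9 and 12.7 TPM in WT and at 11.01, 12.1 and 12.2 TPM in *Ltf*-KO SCs, and *Gm48529* at 1.55, 1.09 and 1.96 TPM in WT and at 1.43, 1.44 and 1.53 TPM in *Ltf*-KO SCs. Both genes overlapped between genotypes, with log2 fold changes of -0.032 and -0.024.

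*Cnn1* (ENSMUSG00000001349), calponin 1 on chromosome 9 from 22099216 to 22109630 of GRCm38, was at 2.89, 0.94 and 0.38 TPM in WT and at 0.40, 0.76 and 0.37 TPM in *Ltf*-KO SCs. WT replicate 1 was above all other libraries, which spanned 0.37 to 0.94 TPM. *Cnn1* took 0.0577% to 0.487% of the TPM of the calponins, against means of 544 TPM for *Cnn3* and 45.6 TPM for *Cnn2*. WT replicate 1 was also the highest library for *Myocd*, the smooth muscle coactivator of SRF, at 0.54 TPM against 0.03 to 0.21 TPM elsewhere, and for *Lyz2*, a lysozyme of macrophages, at 7.22 TPM against 0.38 to 2.31 TPM. It was the highest library for 1 of the 3 macrophage markers averaging 1 TPM or more, *Lyz2*, and for 13.5% of all tested genes. Over the whole list it was the highest for 6 of 9, of which *Lyz2* alone averaged 1 TPM or more. No share with this order was counted over all genes under 1 TPM. The more abundant macrophage markers *Cd14* and *Cd68* were highest in *Ltf*-KO replicate 2 and WT replicate 3. These genes were set beside *Cnn1* after its values were seen, and their part in its values was not tested. With a mean of 0.957 TPM, *Cnn1* was not entered in the fit across genes, and its two-sided exact permutation p between genotypes was 0.3, in a design whose smallest possible p is 0.1.

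*Myh11* (ENSMUSG00000018830), the myosin that defines mature smooth muscle, was at 0.17, 0.41 and 0.37 TPM in WT and at 0.39, 0.62 and 0.56 TPM in *Ltf*-KO SCs. The genotypes overlapped (two-sided exact permutation p = 0.2). It took at most 0.148% of the TPM of the 4 non-sarcomeric class II myosins. The non-muscle myosins *Myh9* and *Myh10* were at 350 and 44.4 TPM, and *Myh14* at 0.568 TPM.

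Among the surface proteins, *Cspg4* (ENSMUSG00000032911), the NG2 proteoglycan on chromosome 9 from 56865033 to 56899870 of GRCm38, was at 32.2, 34.4 and 35 TPM in WT and at 36.7, 41.07 and 30.8 TPM in *Ltf*-KO SCs. The *Ltf*-KO libraries held both its lowest and its highest value. Its log2 fold change was 0.085 with a 95% confidence interval from -0.16 to 0.33 (limma adjusted p = 0.999), and it was -0.0092 without *Ltf*-KO replicate 2, 0.19 without *Ltf*-KO replicate 3 (limma unadjusted p = 0.0394, adjusted p = 0.984) and 0.050 without WT replicate 1. *Cspg4* was highest in *Ltf*-KO replicates 1 and 2 and WT replicate 3. These were also the highest libraries for 5 of the 9 fibroblast markers that averaged 1 TPM or more (such as *Col1a1*, *Col1a2* and *Dcn*). They were the highest for 4 of 6 endothelial markers, for 4 of 7 Schwann cell markers and for 9.22% of all tested genes. Among the 12 myoblast markers the same order held for 2, *Myf5* and *Sdc4*, and among the 15 muscle differentiation markers for 0. This was noticed after the values were seen, and the part of other cells in the *Cspg4* values was not tested.

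*Mcam* (ENSMUSG00000032135), the adhesion molecule CD146 on chromosome 9 from 44134469 to 44142727 of GRCm38, was at 17.1, 17.01 and 17.4 TPM in WT and at 15, 19 and 15.1 TPM in *Ltf*-KO SCs. The 3 WT libraries lay inside the range of the *Ltf*-KO libraries. It was the member with a log2 fold change below 0 among those tested, at -0.074 with a 95% confidence interval from -0.30 to 0.15 (limma adjusted p = 0.999). It was -0.18 without *Ltf*-KO replicate 2 (limma unadjusted p = 0.019, adjusted p = 0.98), -0.018 without *Ltf*-KO replicate 1 and -0.025 without *Ltf*-KO replicate 3.

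*Pdgfrb* (ENSMUSG00000024620), a receptor tyrosine kinase on chromosome 18 from 61045150 to 61085061 of GRCm38, was at 3.73, 3.89 and 4.71 TPM in WT and at 6.95, 7.51 and 4.80 TPM in *Ltf*-KO SCs. All *Ltf*-KO libraries were above all WT libraries, although *Ltf*-KO replicate 3 exceeded WT replicate 3 by little. The WT mean was 4.11 ± 0.526 TPM (SD, n = 3) and the *Ltf*-KO mean 6.42 ± 1.43 TPM (SD, n = 3), a ratio of 1.56. The log2 fold change of 0.52 had a standard error of 0.16 and a 95% confidence interval from 0.13 to 0.92, with a limma unadjusted p of 0.0171 and an adjusted p of 0.999. With any single library left out it stayed between 0.42 and 0.69.

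The related receptor *Pdgfra*, a marker of fibroblasts and fibro-adipogenic cells, was at 1.00, 1.13 and 1.35 TPM in WT and at 1.42, 1.90 and 1.11 TPM in *Ltf*-KO SCs. *Pdgfrb* took 77.5% to 83.03% of the TPM of both receptors. *Ltf*-KO replicates 1 and 2 were the highest libraries for *Pdgfrb*, for the fibroblast collagens *Col1a1*, at 6.91 and 9.32 TPM, and *Col1a2*, at 19.8 and 19.9 TPM, and for the proteoglycan *Dcn*, at 5.71 and 6.83 TPM. In the other 4 libraries these 3 fibroblast genes reached at most 5.91, 16.3 and 5.24 TPM. This order of libraries held for 4 of the 9 fibroblast markers averaging 1 TPM or more, with *Pdgfra* as the fourth, and for 8.78% of all tested genes. It did not hold for *Col3a1*, *Thy1*, *Ly6a*, *Cd34* and *Gsn*. Over the whole list of 12 fibroblast markers, the summed level ranged from 200.4 to 208 TPM in WT and from 200.7 to 242 TPM in *Ltf*-KO SCs, with *Lum*, *Dpt* and *Pi16* below 0.4 TPM in every library. Their part in the *Pdgfrb* values was not tested.

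The PDGF ligands were also measured, of which PDGF-B and PDGF-D act on PDGF receptor β, while PDGF-A and PDGF-C act mainly on the α receptor. The WT mean of *Pdgfa* was 68.5 ± 1.33 TPM (SD, n = 3) and its *Ltf*-KO mean 74.4 ± 4.72 TPM (SD, n = 3). In the same order, *Pdgfb* averaged 15.6 and 15.6 TPM, *Pdgfc* 17.1 and 17.7 TPM and *Pdgfd* 0.777 and 0.637 TPM. *Pdgfa* had the largest log2 fold change of the 3 ligands tested, at 0.11 (standard error 0.053). RNA of *Pdgfa*, *Pdgfb* and *Pdgfc* was above that of either receptor in every library.

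*Abcc9* (ENSMUSG00000030249) and *Kcnj8* (ENSMUSG00000030247), which encode the SUR2 and Kir6.1 parts of the mural potassium channel, are neighbours on chromosome 6 of GRCm38, with 16247 bases between them. *Abcc9* was at 1.10, 1.51 and 1.09 TPM in WT and at 1.45, 1.36 and 1.86 TPM in *Ltf*-KO SCs. The genotypes overlapped, and the log2 fold change was 0.20 with a 95% confidence interval from -0.19 to 0.58 (limma adjusted p = 0.999). It was 0.11 without *Ltf*-KO replicate 3. Its 3 highest libraries were those of *Acta2* and of the same 13 of 15 differentiation markers. *Kcnj8* was at 0.03, 0.12 and 0.14 TPM in WT and at 0.06, 0.05 and 0 TPM in *Ltf*-KO SCs, so the receptor subunit was detected above 1 TPM in every library and the pore was not. The pore and receptor of other cells, *Kcnj11* and *Abcc8*, were at 0.315 and 0.548 TPM. SUR2 is also the receptor subunit of the channel in striated muscle, where its pore is *Kcnj11*.

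*Rgs5* (ENSMUSG00000026678), a regulator of G protein signaling that is a standard marker of pericytes, was at 0.12, 0.18 and 0.13 TPM in WT and at 0.23, 0.39 and 0.46 TPM in *Ltf*-KO SCs. All *Ltf*-KO libraries were above all WT libraries (two-sided exact permutation p = 0.1, the smallest this design can give). Genes between 0.1 and 1 TPM had a median coefficient of variation of 51.5% in WT and 50.7% in *Ltf*-KO libraries, so single values at this level are imprecise. In the fit without a filter on low values, its log2 fold change was 0.25 (limma unadjusted p = 0.0177, adjusted p = 0.946), in a fit where 1.8% of all genes were higher in *Ltf*-KO SCs at an unadjusted p under 0.05. In the same fit the log2 fold change was -0.54 for *Cnn1* (limma unadjusted p = 0.209), 0.21 for *Myh11* (unadjusted p = 0.0884) and -0.080 for *Kcnj8* (unadjusted p = 0.163), each at an adjusted p of 0.946. At such low levels the pseudocount of 1 makes these values smaller than the change in TPM. The *Ltf*-KO mean over the WT mean in TPM was 2.51 for *Rgs5*, 0.363 for *Cnn1*, 1.65 for *Myh11* and 0.379 for *Kcnj8*. *Rgs5* took at most 0.281% of the TPM of the 9 R4 family genes listed, which was led by *Rgs16* at 163 TPM and *Rgs3* at 34.5 TPM, with *Rgs2* at 2.28 TPM.

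**Figure D2:**
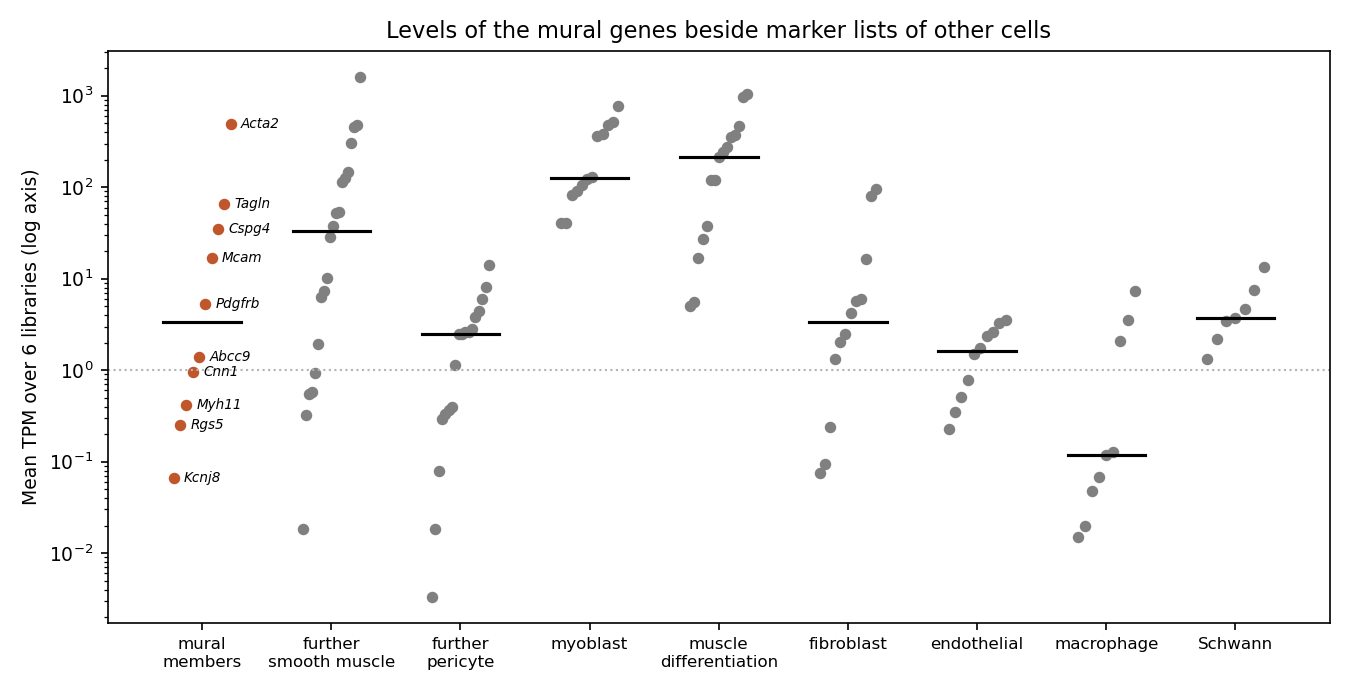
Mean TPM over the 6 libraries (log axis) of the mural genes, each named, and of marker lists of other cells, with 1 point per gene and the median of each list as a bar; genes at 0 in every library are not drawn. The median of the myoblast list was 126 TPM, that of the further pericyte list 2.46 TPM and that of the endothelial list 1.63 TPM. The mural genes ran from 0.0667 TPM (*Kcnj8*) to 492 TPM (*Acta2*).

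Further genes of the same roles were taken from lists. Of 20 further smooth muscle genes, 15 had a mean of at least 1 TPM, led by *Tpm1* at 1613 TPM, *Des* at 473 TPM and *Tpm2* at 458 TPM, which striated muscle also uses. The smooth muscle light chain *Myl9* was at 52.7 TPM and smoothelin (*Smtn*) at 37.7 TPM. The 5 genes of this list under 1 TPM on average were *Mylk* at 0.937 TPM, *Ppp1r14a* at 0.572 TPM, *Itga8* at 0.55 TPM, *Lmod1* at 0.327 TPM and *Pln* at 0.0183 TPM. Of 19 further pericyte genes, 11 had a mean of at least 1 TPM, led by the chloride channel *Ano1* at 14.3 TPM, *Notch3* at 8.05 TPM and the transcription factor *Foxc2* at 5.98 TPM. *Higd1b* was listed at 0 in all 6 libraries and *Steap4* at 0 in 5 of them. The median level was 33.3 TPM in the smooth muscle list and 2.46 TPM in the pericyte list, beside 126 TPM for myoblast markers.

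Of 12 factors listed around SRF and myocardin, which include drivers, a repressor and competitors of the contractile program, 11 had a mean of at least 1 TPM. The WT mean of *Srf* was 49.5 ± 4.49 TPM (SD, n = 3) and its *Ltf*-KO mean 51.7 ± 4.8 TPM (SD, n = 3). The coactivators *Mrtfa* and *Mrtfb*, which carry actin signals to SRF in many cells, were at 25.5 and 9.36 TPM, while *Myocd*, restricted to smooth and cardiac muscle, was at 0.198 TPM. Among the other factors, *Fhl1* was at 85.03 TPM, *Fhl2* at 62.8 TPM, *Tead1* at 46.7 TPM and *Tead3* at 16 TPM. *Klf4*, a repressor of the contractile program, was at 18.4 TPM. The ternary complex factors, which compete with the coactivators for SRF, were at 12.2 TPM for *Elk1*, 58.9 TPM for *Elk3* and 15.6 TPM for *Elk4*. The 11 tested had log2 fold changes from 0.00044 to 0.13, all above 0, as were 55.7% of all tested genes. Of the 11, 0 had an unadjusted limma p under 0.05.

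The genotype comparison asked whether loss of lactoferrin changed these genes. Over all 12956 genes tested, limma called 0 genes (0%) at an adjusted p under 0.05, and 490 genes (3.78%) had an unadjusted p under 0.05. Of these 490 genes, 260 were higher in *Ltf*-KO SCs, which is 2.01% of the tested genes, and the others, lower in *Ltf*-KO SCs, were 1.78%. With quantile normalization this balance turned, to 203 higher and 305 lower, as it did with median-of-ratios scaling, to 222 higher and 280 lower. Of the 6 members tested, 0 passed the adjusted threshold, and *Tagln* and *Pdgfrb* had an unadjusted p under 0.05, both higher in *Ltf*-KO SCs. This count of 2 was 0 without WT replicate 1 or WT replicate 2, 1 without WT replicate 3 or *Ltf*-KO replicate 1, and 3 without *Ltf*-KO replicate 2 or *Ltf*-KO replicate 3. The 3 without *Ltf*-KO replicate 2 were *Acta2* and *Tagln*, higher in *Ltf*-KO SCs, and *Mcam*, lower, and those without *Ltf*-KO replicate 3 were *Tagln*, *Cspg4* and *Pdgfrb*, all higher. The median log2 fold change of the 6 was 0.19, beside 0.011 over all tested genes, and 5 of the 6 were above 0, as were 55.7% of all tested genes.

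All *Ltf*-KO libraries were above all WT libraries for *Tagln* and *Pdgfrb* among the 6 members tested, and for 4.73% of all tested genes. Among the 4 members under 1 TPM this held for *Rgs5*, and among all genes averaging above 0 and under 1 TPM it held for 2.62%. The reverse order occurred for 0 of the 10 members, and for 3.73% and 2.35% of these sets of genes. The members are few and were listed with earlier results known, so these counts describe the genes and no test was made of the list.

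**Figure D3:**
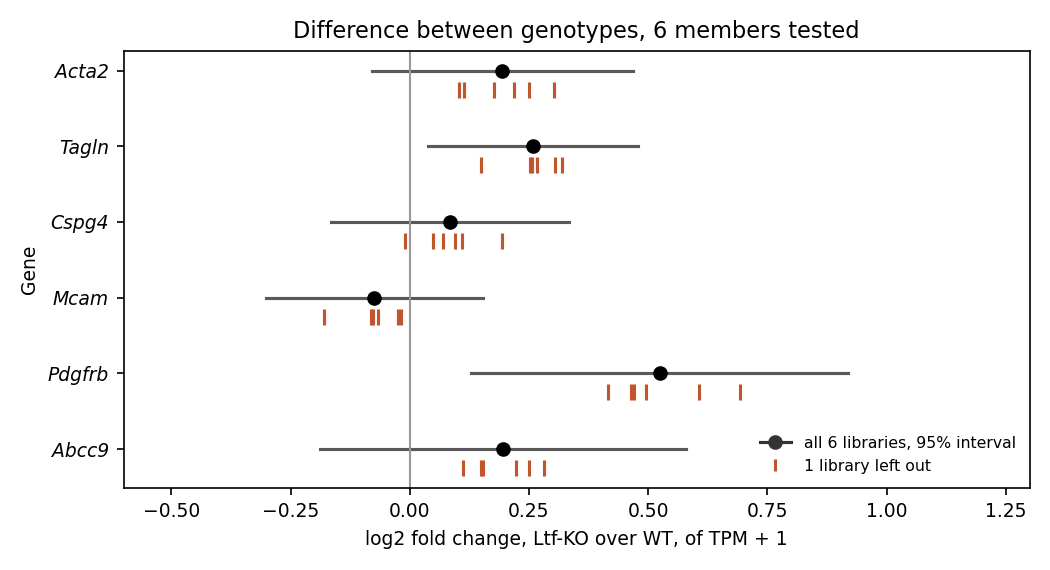
Log2 fold change of *Ltf*-KO over WT on log2(TPM + 1) for the 6 members tested (points, with 95% confidence intervals from limma as lines) and the same value with each library left out in turn (orange ticks). The intervals of *Tagln* and *Pdgfrb* lay above 0 before adjustment for 12956 genes, and the value of *Cspg4* crossed 0 when *Ltf*-KO replicate 2 was left out.

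Of the 15 further smooth muscle genes tested, 14 had a log2 fold change above 0, as did 55.7% of all tested genes. The median of this list was 0.085, beside 0.011 over all tested genes, and ranged from 0.046 to 0.12 with a library left out. *Pdlim7*, a PDZ and LIM domain protein of actin filaments, had a WT mean of 140.2 ± 1.64 TPM (SD, n = 3) and a *Ltf*-KO mean of 153 ± 1.06 TPM (SD, n = 3). Its log2 fold change was 0.13, and it was the gene of this list with an unadjusted limma p under 0.05. Of the 11 further pericyte genes tested, 6 were above 0 and 5 below, with a median of 0.012 that ranged from -0.019 to 0.077 with a library left out. *Art3*, an ADP-ribosyltransferase family gene, was at 2.06, 1.61 and 2.04 TPM in WT and at 3.03, 3.24 and 3.82 TPM in *Ltf*-KO SCs. All *Ltf*-KO libraries were above all WT libraries, and the log2 fold change was 0.59 with a standard error of 0.13. For *Art3* and *Pdlim7*, as for every gene tested, the limma adjusted p was above 0.05.

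TGF-β signaling, a known inducer of the contractile genes, was represented by 12 genes, of which 11 were tested. They were led by *Tgfb1* at 43.8 TPM, *Smad4* at 38.3 TPM and *Smad2* at 34.9 TPM, had a median log2 fold change of -0.0039 with 5 above 0 and 6 below (-0.026 to 0.041 with a library left out), and 0 had an unadjusted limma p under 0.05. Among markers of other cells, the summed level of 10 endothelial genes ranged from 9.84 to 23.9 TPM in WT and from 11.4 to 22.02 TPM in *Ltf*-KO SCs, led by *Egfl7*, *Cdh5* and *Emcn* at 3.53, 3.26 and 2.6 TPM. *Egfl7*, a secreted endothelial factor, had a WT mean of 2.51 ± 0.714 TPM (SD, n = 3) and a *Ltf*-KO mean of 4.55 ± 1.23 TPM (SD, n = 3) and was the endothelial gene with an unadjusted limma p under 0.05. The sum of 7 Schwann cell genes, led by *Ngfr*, *Erbb3* and *Sox10* at 13.3, 7.53 and 4.68 TPM, ranged from 25.8 to 42.5 TPM in WT and from 33.2 to 43.08 TPM in *Ltf*-KO SCs. The sum of 9 macrophage genes, led by *Cd14*, *Cd68* and *Lyz2* at 7.29, 3.53 and 2.06 TPM, ranged from 12.3 to 18.3 TPM in WT and from 10.1 to 13 TPM in *Ltf*-KO SCs. The fibroblast list was led by *Col3a1*, *Gsn* and *Col1a2* at 96.7, 79.4 and 16.3 TPM. None of these sums separated the genotypes, and their part in the values of the mural genes was not tested.

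**Figure D4:**
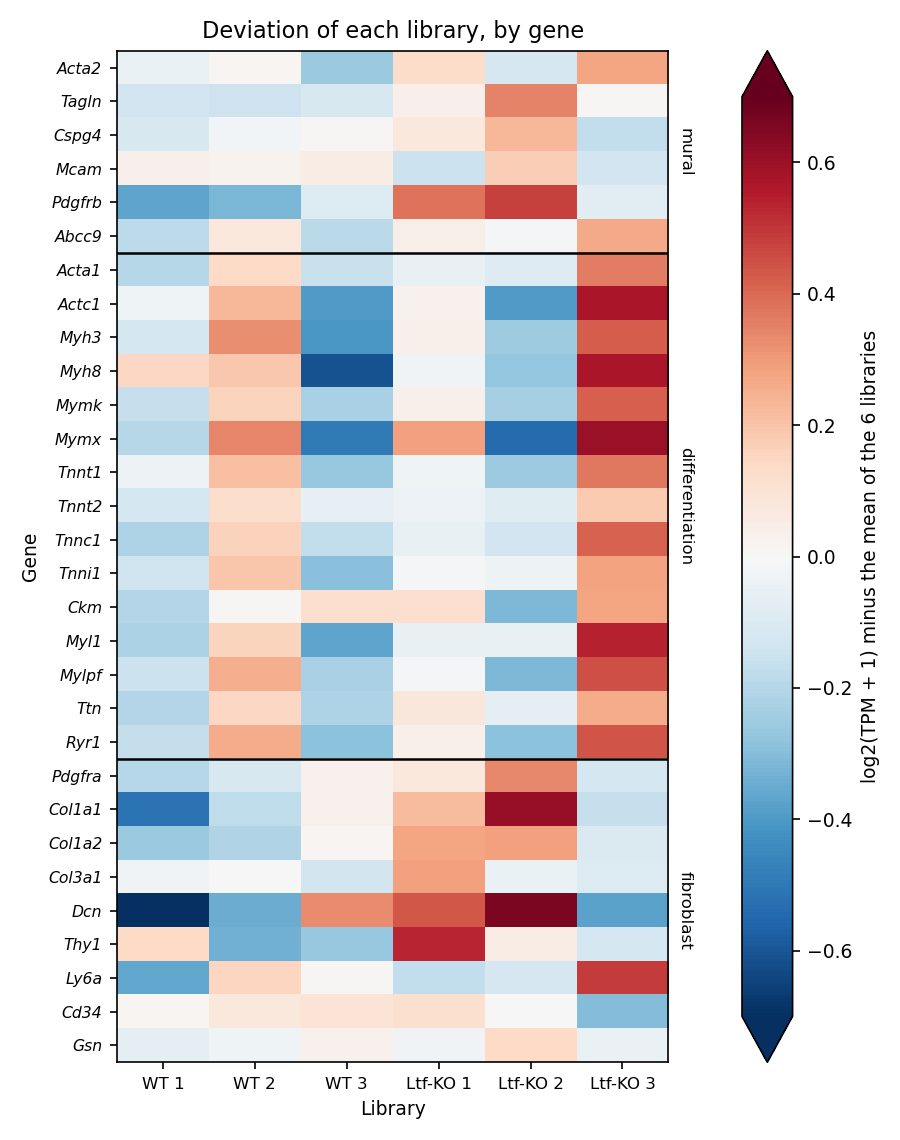
Deviation of log2(TPM + 1) in each library from the mean of the 6 libraries, for the 6 mural genes averaging 1 TPM or more, 15 muscle differentiation markers and 9 fibroblast markers; red is above and blue below the mean. *Acta2* and *Abcc9* were highest in WT replicate 2 and *Ltf*-KO replicates 1 and 3, like 13 of 15 differentiation markers, and *Pdgfrb* was highest in *Ltf*-KO replicates 1 and 2.

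The genes whose pattern was most like the mean of *Acta2*, *Tagln* and *Cnn1* (each scaled to its own spread) over the 6 libraries were *Gm2446*, *Abhd8*, *Gm13988*, *Serpinf1* and *B4gat1*, with Pearson r from 0.987 to 0.993 among 12954 genes searched. With 6 points and this many genes, values of that size are a description only. The 3 genes did not share a pattern, as *Cnn1* peaked in WT replicate 1, where *Acta2* and *Tagln* were below their own means. The myoblast markers averaged from 40.2 TPM (*Vcam1*) to 779 TPM (*Myod1*), and *Acta2* and *Tagln* lay within this range. *Cspg4* and *Mcam* were above 10 TPM in all 6 libraries but below the lowest of these markers. *Pdgfrb* was at 5.27 TPM, *Abcc9* at 1.4 TPM and *Cnn1* at 0.957 TPM. List medians were 3.69 TPM for Schwann cell, 3.37 TPM for fibroblast, 2.46 TPM for further pericyte and 1.63 TPM for endothelial genes. *Pdgfrb* lay above these medians, and *Abcc9* and *Cnn1* lay below them. The macrophage list had a median of 0.118 TPM. *Myh11*, *Rgs5* and *Kcnj8* were under 1 TPM in all 6 libraries. Bulk values do not say which cells each RNA came from.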

How the data were processed

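RNA was measured in 6 libraries of SCs, 3 WT and 3 *Ltf*-KO, assigned by the sample labels. The authors deposited TPM values of 55416 genes with 2 decimals, made by extraction and normalization under the protocol of the sequencing company. The submitters' processing notes name GRCm39 as the build, and the aligner, counting tool and annotation release are not given in the sources used here. The unit was read from the values, since column totals lay between 993650 and 994356. TPM keeps no depth, so precision was judged from the spread between libraries.

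Genotypes were compared with limma 3.58.1 in R 4.3.3 (lmFit, eBayes with a variance trend) on log2(TPM + 1), after a filter at a mean of 1 TPM that kept 12956 genes, two-sided, with Benjamini-Hochberg adjustment over all of them and a threshold of 0.05. Members under this filter were compared by an exact permutation test of TPM over the 20 assignments of 3 libraries. The code of the fit was checked on simulated data, with independent genes and a change added to abundant genes only. That change was larger than those fitted for the members, so the check does not cover changes of their size. The members and lists were chosen with earlier results of these data known, and the study's own lists were not used. One gene of the Schwann cell list is not reported here and was left out of its sum. Named were the members, their family members, the 3 most abundant genes and the genes at an unadjusted p under 0.05 of each other list, and the 5 genes most like *Acta2*, *Tagln* and *Cnn1*. Other genes were chosen after their values were seen. Alternatives were a pseudocount of 0.1, no filter, a mean of at least 10 TPM, quantile normalization, median-of-ratios scaling, no variance trend, the replicate number as a block, and each library left out in turn. Gene positions and transcripts were taken from GENCODE M21 (GRCm38) by gene name. Promoters are from RefSeq on GRCm38.p6, where 7 members had an entry that was searched.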

Additional observations from a re-analysis of the deposited data

How the results depend on the processing

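The count of 0 genes at an adjusted limma p under 0.05 held with every alternative that kept all 6 libraries and ranged from 0 to 6 with a library left out. At an unadjusted p under 0.05 there were 490 genes, 890 with no filter, which tests more genes, 281 with the filter at 10 TPM, which tests fewer, and 456 to 611 with a library left out. Of the members, 2 had an unadjusted p under 0.05, 1 with the filter at 10 TPM, which leaves out *Pdgfrb* and *Abcc9*, 3 with no filter, which adds *Rgs5*, and 0 to 3 with a library left out. Their median log2 fold change of 0.19 stayed between 0.13 and 0.25. Among members, a change of sign occurred for *Cspg4*, at -0.0092 without *Ltf*-KO replicate 2, and the cause was not tested. Adjusted limma p-values of the members ranged from 0.91 to 1 over these alternatives. Both genotypes carry replicate numbers 1 to 3. Deviations of same-numbered libraries correlated at -0.041, -0.058 and -0.088 across genes, and 0 of 3 correlated best with their own number. These values gave no sign of pairing by number. With 3 libraries per genotype this check cannot exclude a shared preparation, which no label states. With the replicate block, 0 genes passed the adjusted threshold, 380 genes and 2 members had an unadjusted p under 0.05, and the members' median was 0.19. The planned count models were not run, as the table holds TPM. Without known depth, levels under 1 TPM are limited most, and for *Cnn1*, *Myh11*, *Rgs5* and *Kcnj8* a fitted value was had only without the filter.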
